A study of Rattus norvegicus with 16 samples.

Results

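Of the 10 genes listed as NF-κB subunits, inhibitors and their regulators, 7 (Nfkb1, Nfkb2, Rela, Nfkbia, Nfkbib, Ikbkb and Bcl3) were found by their gene name among the non-control probes of the rat array, on 8 of its 30367 probes. Rela had 2 probes and each other gene 1. Relb, Rel and Tnfaip3 had no probe of that name and were not analysed here. All 8 probes entered the tests, and 6 of them were well above background, in the scanner software's own call, on 16 of 16 arrays.

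Whole hippocampus of adult male Sprague-Dawley rats was collected 24 h after parasagittal fluid-percussion brain injury or its equivalent, and each array held the RNA of 1 rat. The groups were Naïve (no injury and no treatment, n = 3), Sham (anesthetized and prepared but not injured, n = 2), TBI (injured, no drug, n = 3), TBI+PMI (injured, PMI by oral gavage, n = 3), TBI+JM6 (injured, JM6 by oral gavage, n = 3) and TBI+E33 (injured, E33, the estradiol group of the methods, given subcutaneously by the labels, n = 2). The methods instead give estradiol intraperitoneally and 3 rats in each group, so the route differs between the sources. Sham and TBI+E33 had fewer arrays here than the methods state. RNA of each sample was amplified with one of 2 kits, and which kit went with which rat is not given in the sources used here. The 16 arrays fell on 4 slides scanned in 2 sessions. Naïve, Sham and TBI shared one session and the drug-treated groups the other, so drug and session cannot be told apart in any comparison across them. No slide held both TBI and Sham, so injury and slide cannot be told apart in a direct comparison of these groups. Naïve arrays lay on the slides of both.

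Between 16282 and 18245 probes were well above background on the Naïve, Sham and TBI arrays and between 20259 and 24984 on the drug-treated arrays. Signals were divided, array by array, by the 75th percentile of the probes called above background there, and are given below as a percentage of it. On this scale the median log2 difference over all tested probes was 0.79 in TBI+PMI, 0.99 in TBI+JM6 and 1.08 in TBI+E33 against TBI, while it was -0.03 in TBI against Sham and 0.04 in TBI against Naïve. Quantile normalization, which gives all arrays one distribution, left medians of -0.05 to -0.0024 in these 5 comparisons. Neuronal, astrocyte, oligodendrocyte and microglial markers were well above background on all arrays (at least 9 of 10, 10 of 10, 8 of 8 and 11 of 12 listed genes), as were 7 to 9 of 10 hippocampal genes.

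NF-κB is a family of dimeric transcription factors. In resting cells inhibitory IκB proteins hold the dimers in the cytoplasm, and in the canonical pathway the IκB kinase marks IκB for degradation so that the dimers, typically of RelA and p50, enter the nucleus and bind κB sites. Several NF-κB target genes encode inhibitors or subunits of the pathway itself, and in injured brain NF-κB is known for driving the transcription of cytokines, chemokines and adhesion molecules in glia, endothelium and infiltrating leukocytes.

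The array reads each gene through a stretch of its transcript. The probes of the subunits and of Nfkbia lie in coding sequence and are shown to make plain what was hybridized (5′ to 3′, lower case, no position marked). On rn4 they lie at chr2:233091704-233091763 (minus strand, Nfkb1), chr1:251526647-251526839 (plus strand, Nfkb2), chr1:208272360-208272419 (plus strand, Rela) and chr6:75730438-75730497 (minus strand, Nfkbia). The Nfkb2 probe spans 193 bases of the genome and so crosses a splice junction.
Nfkb1: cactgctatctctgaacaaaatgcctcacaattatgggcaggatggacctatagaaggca
Nfkb2: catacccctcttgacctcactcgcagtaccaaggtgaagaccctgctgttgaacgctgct
Rela: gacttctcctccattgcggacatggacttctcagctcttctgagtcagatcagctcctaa
Nfkbia: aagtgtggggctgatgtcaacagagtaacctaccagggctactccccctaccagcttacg

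The other probes lie at chr1:79122832-79122891 (minus strand, Bcl3, printed as 10 spots on each array), chr16:73858022-73858081 (plus strand, Ikbkb), chr1:83866200-83866259 (minus strand, Nfkbib) and chr1:208263526-208263582 (plus strand, second Rela probe) of rn4.

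Members other than Relb and Ikbkb, 8 in all, had a promoter window in the RefSeq table (GRCr8), running from 250 bases before the gene's start to 50 after it. A match to the κB consensus decamer, searched on both strands, was present in 6 of these 8 windows and in 4.18% of 33469 windows of the same length. In the 250 bases upstream of the start it was present in 5 of 8 (Bcl3, Nfkb2, Nfkbia, Rel and Tnfaip3) and in 3.54% of all. Matches on the 2 strands may overlap and count once for a window. In Nfkb1 the match, GGGAATTTCC, began 3 bases after the start, and the windows of Rela and Nfkbib held none, which says only that these letters are absent there. The upstream 250 bases of the 3 measured genes with a match are shown in the direction of the gene, with the matched decamer in capitals (Bcl3, chr1:88613556-88613805, minus strand; Nfkb2, chr1:255108124-255108373, plus strand; Nfkbia, chr6:78597073-78597322, minus strand; all GRCr8).
Bcl3: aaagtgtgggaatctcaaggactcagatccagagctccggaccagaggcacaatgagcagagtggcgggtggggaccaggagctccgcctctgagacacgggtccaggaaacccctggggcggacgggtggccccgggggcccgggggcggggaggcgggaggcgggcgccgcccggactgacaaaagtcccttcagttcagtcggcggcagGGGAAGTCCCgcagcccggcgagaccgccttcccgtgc
Nfkb2: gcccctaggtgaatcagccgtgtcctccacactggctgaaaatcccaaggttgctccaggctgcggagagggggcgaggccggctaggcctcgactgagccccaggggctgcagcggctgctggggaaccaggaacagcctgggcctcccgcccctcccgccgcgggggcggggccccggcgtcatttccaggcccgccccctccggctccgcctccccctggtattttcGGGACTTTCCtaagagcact
Nfkbia: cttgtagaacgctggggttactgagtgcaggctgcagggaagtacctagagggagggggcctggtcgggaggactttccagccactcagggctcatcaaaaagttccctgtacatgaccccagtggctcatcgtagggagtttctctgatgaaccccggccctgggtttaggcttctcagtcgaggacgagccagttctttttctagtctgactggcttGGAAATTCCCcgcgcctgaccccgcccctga

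The Bcl3 match ended 29 bases before the start and read GGGACTTCCC on the opposite strand, that of Nfkb2 ended 11 bases before it (GGGACTTTCC), and that of Nfkbia ended 22 bases before it (GGGAATTTCC on the opposite strand). A match is a description of the sequence and was not tested as a binding site.

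The comparison of TBI with Sham asked what differed with injury, although the groups lay on different slides. Bcl3 rose, and was the 1 member of 7 called at an adjusted p under 0.05 (limma, Benjamini-Hochberg over all probes), where 9.41% of all tested probes were called in either direction and 2.93% were called higher (7.97% in either direction with quantile normalization). The other 6 members did not pass. With the slide as a fixed block none of the 7 was called, against 0.136% of all tested probes. Bcl3 encodes an atypical IκB protein that sits in the nucleus on p50 or p52 dimers and can act as a coactivator. Nfkb2, Nfkb1 and Nfkbia also had higher values on every TBI array than on either Sham array without passing the test. With Bcl3 this made 4 of 7 members whose groups did not overlap, against 41.4% of all probes. The median log2 fold change of the 7 members was 0.44, and that of all tested probes was -0.03.

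**Figure D1:**
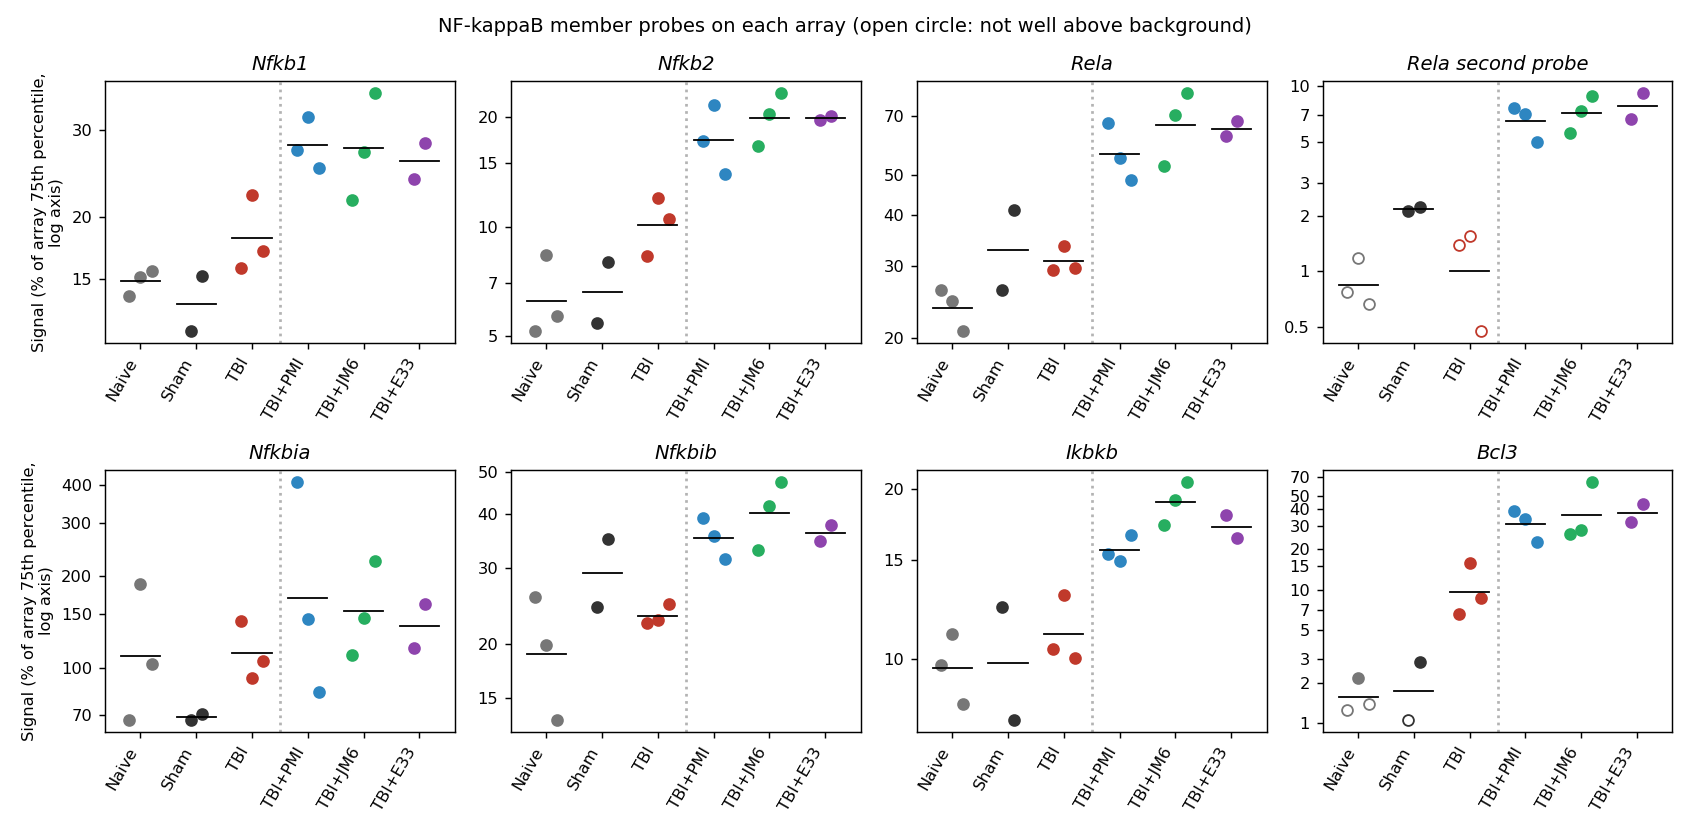
Signal of the 8 member probes on each of the 16 arrays, as a percentage of the array's 75th percentile on a log axis, by group. Each circle is 1 array, open where the probe was not well above background, and the bar is the geometric mean. The dotted line parts the 2 scan sessions. Bcl3 was at 2.89% or lower on the uninjured arrays, 6.57% to 15.9% on TBI arrays and 22.8% to 64.3% on drug-treated arrays, and Nfkb2, Rela, its second probe and Ikbkb were also higher on every drug-treated array than on any other array.

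The Bcl3 signal was 1.25%, 2.2% and 1.38% on the 3 Naïve arrays and 1.05% and 2.89% on the 2 Sham arrays. It was 6.57%, 15.9% and 8.64% on the 3 TBI arrays. The lowest TBI array was thus above the highest uninjured array, and the groups did not overlap. The probe was well above background on 1 of 3 Naïve, 1 of 2 Sham and 3 of 3 TBI arrays, so that the uninjured level lay at the edge of what the array measured. Bcl3 was 5.53-fold higher in TBI than in Sham (log2 fold change 2.47 ± 0.51 SE, 95% interval 1.37 to 3.57, adjusted p = 0.0145, limma) and 6.19-fold higher than in Naïve (2.63 ± 0.46, adjusted p = 0.0104, limma). Under quantile normalization the log2 fold changes were 2.12 (adjusted p = 0.0174, limma) and 2.15 (adjusted p = 0.00992, limma). These folds take the signal as measured on uninjured arrays, most of which were not above background. On the slide that held the TBI arrays and 1 Naïve array, the difference between them was 2.80, and no slide held both TBI and Sham.

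The call against Sham rested on few arrays. Without Sham replicate 1 the log2 fold change was 1.74 (adjusted p = 0.121, limma) and without TBI replicate 2 it was 2.11 (adjusted p = 0.0519, limma), whereas the call against Naïve was kept in 6 of 6 fits that left out 1 array. Both calls were lost with the slide as a fixed block (adjusted p = 0.698 against Sham and 0.326 against Naïve, limma) and with the compared groups fitted alone (0.16 and 0.0797, limma). With normexp background correction, in which an offset was added to every signal, the values were 1.37 (adjusted p = 0.308, limma) and 1.33 (adjusted p = 0.331, limma).

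Some blood leukocyte and microglial genes also changed in TBI against Sham. Of 10 tested leukocyte genes 4 passed as higher and none as lower in TBI against Sham, for instance S100a8, a subunit of calprotectin, at a log2 fold change of 3.77 (adjusted p = 0.00991, limma). The marker genes named here were chosen after their values were seen. The signal of all 12 listed leukocyte genes was summed, in multiples of the array's 75th percentile. It was 4.82 to 5.95 in Naïve and 5.69 to 7.26 in Sham. On the TBI arrays it was 6.07, 12.3 and 6.66, so only TBI replicate 2 lay above the Sham range. Mpo was well above background on no array. Of 12 microglial and macrophage genes 3 rose (Cd68, Tyrobp and Itgam) and 2 fell (Tmem119 and P2ry12). Their summed signal was 20.7 to 36.4 in Sham and 30.6 to 40.4 in TBI, and TBI replicate 1, at 30.6, lay inside the Sham range. Of 10 neuronal genes 3 fell against Sham and 0 against Naïve, and of 8 oligodendrocyte genes 4 fell against Sham and 0 against Naïve, while 2 of each list were higher in Sham than in Naïve. With quantile normalization 3 leukocyte genes passed as higher, and 1 neuronal and 3 oligodendrocyte genes as lower, in TBI against Sham. Over all tested probes 9.41% were called in this comparison, 2.93% as higher, and 7.97% with quantile normalization. Against Naïve 4.71% were called in TBI and 8.08% in Sham. The marker counts were not tested against these shares. The part of cell composition in the Bcl3 result was not tested, and in bulk tissue fewer cells of a type and less RNA per cell cannot be told apart.

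Nfkb2, which encodes the p100 precursor of p52 in the non-canonical arm, was at 5.16%, 8.35% and 5.7% in Naïve, 5.44% and 8.03% in Sham and 8.29%, 12% and 10.5% in TBI. The lowest TBI array lay just above the higher Sham array and just below the highest Naïve array. The log2 fold change was 0.62 ± 0.27 against Sham (adjusted p = 0.171, limma) and 0.69 ± 0.24 against Naïve (adjusted p = 0.122, limma), and neither passed. Under quantile normalization the value against Sham was 0.63 (adjusted p = 0.0592, limma). It passed when arrays were scaled to the 75th percentile of all probes (0.69 against Sham, adjusted p = 0.0466, and 0.65 against Naïve, adjusted p = 0.0489, limma) and, against Sham, in the authors' matrix (0.64, adjusted p = 0.0439, limma).

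Nfkb1, which encodes the p105 precursor of p50, was at 13.8%, 15.1% and 15.5% in Naïve, 11.7% and 15.2% in Sham and 15.7%, 22.1% and 17% in TBI. The TBI arrays were above all uninjured arrays, by a narrow margin. With quantile normalization they overlapped the Naïve arrays but not the Sham arrays. The log2 fold change was 0.44 ± 0.23 against Sham (adjusted p = 0.247, limma) and 0.29 ± 0.21 against Naïve (adjusted p = 0.465, limma).

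Rela, the subunit with the transactivation domain of the canonical dimer, was at 26.1%, 24.6% and 20.7% in Naïve, 26.1% and 41.2% in Sham and 29.4%, 33.5% and 29.7% in TBI. The TBI arrays lay between the 2 Sham arrays. The log2 fold change against Sham was -0.09 (95% interval -0.60 to 0.42, adjusted p = 0.841, limma), and against Naïve it was 0.38 ± 0.21 (adjusted p = 0.335, limma).

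The second Rela probe was dim. It was well above background on 0 of 3 Naïve, 2 of 2 Sham and 0 of 3 TBI arrays, at 2.12% and 2.22% in Sham and 1.39%, 1.56% and 0.473% in TBI. With TBI signals set no lower than the lowest signal above background on their array, the Sham mean was 1.36-fold higher than the TBI mean. This limit carries no sampling error, and the fit did not pass (adjusted p = 0.131, limma). Both probes had values below 0 in TBI against Sham and neither passed, and the brighter one was taken for the gene.

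Of the inhibitors, Nfkbia encodes IκBα, which NF-κB itself induces and which ends its response. Its signal was 67.4%, 188% and 103% in Naïve, 67.6% and 70.4% in Sham and 142%, 92.6% and 106% in TBI. The TBI arrays were above both Sham arrays but inside the Naïve range, and Naïve replicate 2 was the highest of the 8. The log2 fold change was 0.69 ± 0.57 against Sham (95% interval -0.53 to 1.92, adjusted p = 0.471, limma) and 0.03 ± 0.51 against Naïve (adjusted p = 0.982, limma). Choroid plexus genes differed between these arrays: their summed signal was 77.8 on Naïve replicate 2, 124 on Sham replicate 1, 155 on TBI+PMI replicate 1 and 7.68 or lower on the other 13 arrays. Nfkbia was highest of its group on the Naïve and the TBI+PMI array of these 3 and lowest of its group on the Sham array, and their part in its spread was not tested.

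Nfkbib, which encodes IκBβ, was at 25.7%, 19.9% and 13.3% in Naïve, 24.3% and 35.1% in Sham and 22.3%, 22.7% and 24.8% in TBI. The groups overlapped throughout. Its log2 fold change was -0.33 ± 0.26 against Sham (adjusted p = 0.46, limma) and 0.29 ± 0.24 against Naïve (adjusted p = 0.527, limma).

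Ikbkb, the kinase subunit IKKβ that phosphorylates IκB in the canonical pathway, was at 9.79%, 11.1% and 8.33% in Naïve, 12.4% and 7.82% in Sham and 10.4%, 13% and 10.1% in TBI. Its arrays overlapped in all 3 groups. The 95% interval of its log2 fold change was -0.28 to 0.63 against Sham and -0.21 to 0.61 against Naïve.

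Against Naïve, Bcl3 was again the 1 member of 7 called, where 4.71% of all tested probes were called, 2.98% as higher (5.55% in either direction with quantile normalization). All 7 fold changes were above 0 with a median log2 value of 0.29, against 0.04 for all probes, and under quantile normalization 6 of 7 were above 0. In 3 of 7 members (Bcl3, Nfkb1 and Rela) the TBI and Naïve arrays did not overlap, against 22.9% of all probes. With quantile normalization the TBI and Naïve arrays of Nfkb1 and Rela overlapped, and those of Bcl3 did not. Between Sham and Naïve 0 of 7 members were called by limma, where 8.08% of all tested probes were, and 1 of 7 (Nfkbib, 0.62 ± 0.26, adjusted p = 0.175) had an unadjusted p under 0.05. With quantile normalization 0 of 7 were called (limma, 0 of 7 at an unadjusted p under 0.05), against 5.76% of all probes, and with 75th percentile scaling 0 of 7 had arrays that did not overlap, against 38.9%. The methods' t-test, with their cutoff on the unadjusted p and a fold change over 1.2, passed 1 of 7 members in TBI against Sham (Bcl3), 2 in TBI against Naïve (Bcl3 and Rela) and 0 in Sham against Naïve, where 13.5%, 13.9% and 16% of all probes passed. After Benjamini-Hochberg adjustment it passed none of them.

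**Figure D2:**
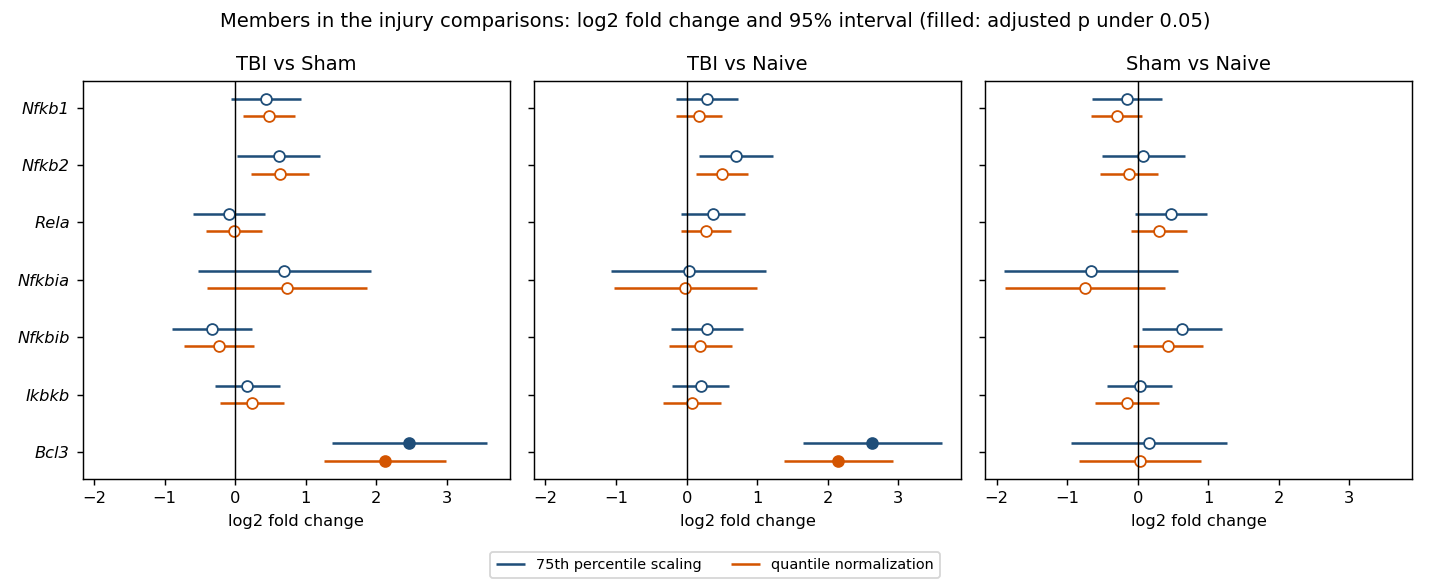
Log2 fold change (circle) and 95% interval (line) of the 7 members in TBI against Sham, TBI against Naïve and Sham against Naïve, with 75th percentile scaling in blue and quantile normalization in orange. Filled circles passed an adjusted p of 0.05. Bcl3 alone was filled, at 2.47 and 2.63 against Sham and Naïve with 75th percentile scaling, and the intervals of Rela, Nfkbia and Ikbkb spanned 0 in all 3 comparisons.

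Around the members, calls were made in both directions among the signalling components and as rises among the listed target genes of NF-κB. Of 27 tested target genes 7 rose and none fell in TBI against Sham (20 did not pass), against 2.93% of all probes called higher. Their median log2 fold change was 0.98 against -0.03 for all probes. The largest were Lcn2, the siderophore-binding lipocalin (237% to 2349% in TBI against 6.52% to 6.64% in Sham, log2 fold change 7.36 ± 0.86), and the monocyte chemoattractant Ccl2 (140% to 337% against 0.567% to 2.92%, 7.36 ± 0.98, above background on 1 of 2 Sham arrays). The neutrophil chemoattractant Cxcl1 was below the background limit on both Sham arrays, and its level in TBI was at least 8.1-fold that of Sham. Against Naïve 11 of 27 rose and none fell, where 2.98% of all tested probes were called higher. The target list was chosen with earlier results of these data known, so these counts are a description and no independent test. Against TBI, their quantile-normalized log2 values in TBI+PMI, TBI+JM6 and TBI+E33 were 0.14, -0.22 and 0.65 for Lcn2, 0.41, 0.26 and -0.51 for Ccl2 and -0.10, -0.34 and -0.77 for Cxcl1, and none passed. The target list shares no gene with the cell marker lists, but many of its genes are also expressed by leukocytes and microglia.

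Of 6 tested upstream receptors 2 rose: Tnfrsf1a, the TNF receptor of most cells (1.47 ± 0.28, adjusted p = 0.0123, limma), and Tlr4, the receptor for lipopolysaccharide, which stayed below the background limit in Sham and whose level in TBI was at least 2.37-fold that of Sham. Of 17 canonical kinases and adaptors none rose and 1 fell, Traf2, an adaptor of TNF receptors (-0.87 ± 0.21, adjusted p = 0.0246, limma). In the non-canonical arm 1 of 6 rose (Tnfrsf12a, the receptor of TWEAK, 2.44 ± 0.64, adjusted p = 0.0351, limma) and 1 fell (Traf3, which restrains this arm, -0.74 ± 0.20, adjusted p = 0.0356, limma). Of 13 other IκB proteins and negative regulators none rose and 2 fell, Otud7b, a deubiquitinase (-1.32 ± 0.28, adjusted p = 0.0159, limma, above background on 1 of 3 TBI arrays), and Nfkbil1 (-1.05 ± 0.28, adjusted p = 0.0377, limma). The 4 genes that fell against Sham did not pass against Naïve, where the corresponding values were 0.18 for Traf2, -0.42 for Traf3, -0.29 for Otud7b and -0.51 for Nfkbil1. Under quantile normalization only Otud7b of these 4 passed against Sham (-1.09, adjusted p = 0.048, limma), and 1 canonical gene, the adaptor Myd88 (0.85, adjusted p = 0.0308, limma), and 1 further non-canonical gene, the lymphotoxin β receptor Ltbr (0.77, adjusted p = 0.0444, limma), rose. Against Naïve with 75th percentile scaling Myd88 (1.10, adjusted p = 0.0294, limma), Ltbr (1.15, adjusted p = 0.019, limma) and the atypical IκB gene Nfkbiz (1.66, adjusted p = 0.0351, limma) rose. These 3 genes are named after their values were seen. Over all tested probes 9.41% were called in TBI against Sham, 2.93% as higher, and 4.71% against Naïve, 2.98% as higher. With quantile normalization 7.97% were called in TBI against Sham. The list counts were not tested against these shares.

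**Figure D3:**
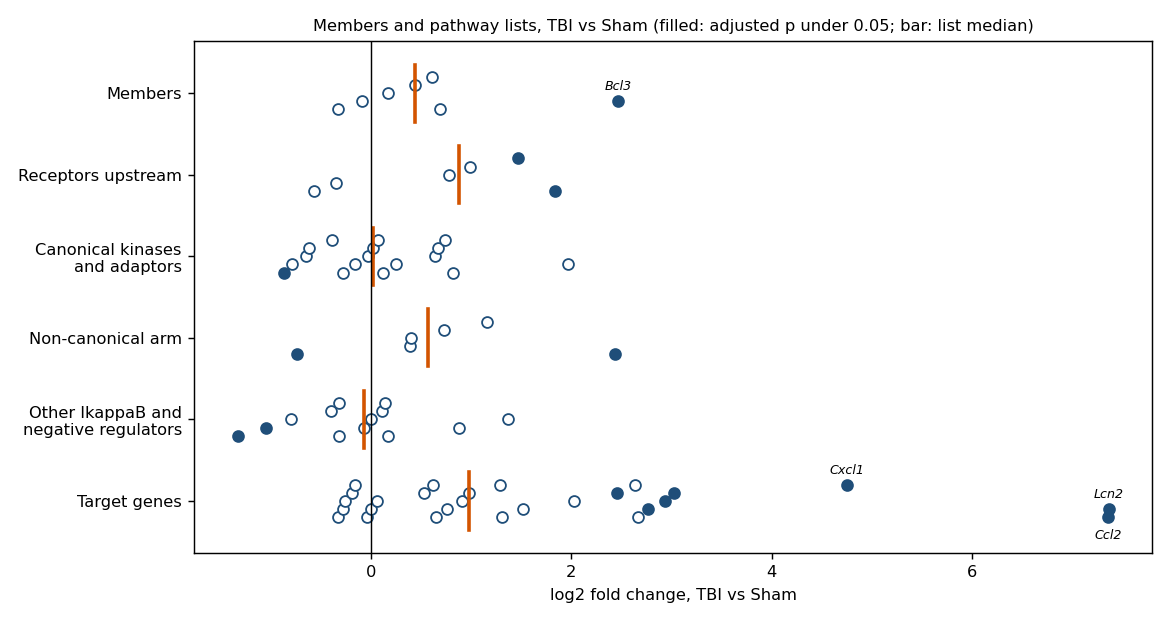
Log2 fold change in TBI against Sham of the 7 members and of the tested genes of 5 pathway lists, 1 circle a gene, filled at an adjusted p under 0.05. Vertical bars are list medians. Bcl3 was the 1 filled member at 2.47, and the target genes reached 7.36 (Lcn2 and Ccl2). Fitted values of genes dim in Sham, such as Cxcl1, are not bounds.

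The drug-treated groups were set against TBI to ask how treatment altered the injured hippocampus. On the 75th percentile scale the group mean of every member was higher in all 3 drug-treated groups than in TBI. Of the 7 members, 6 passed in TBI+PMI and TBI+JM6 (all but Nfkbia) and 5 in TBI+E33 (all but Nfkbia and Nfkb1). These shares stood beside 56.7%, 70.1% and 70.3% of all tested probes in either direction, of which 56.7%, 69.9% and 70.2% were higher. The arrays did not overlap in 6, 5 and 6 of 7 members, against 62.5%, 73.2% and 85.1% of all probes. The median log2 fold change of the 7 members was 0.63, 0.80 and 0.64 in TBI+PMI, TBI+JM6 and TBI+E33. That of all probes was 0.79, 0.99 and 1.08. Counted from the all-probe median, Nfkb2 lay at -0.02, -0.02 and -0.11, and Rela at 0.09, 0.12 and 0.0027. Nfkb1, Nfkbia, Nfkbib and Ikbkb lay below it in all 3 comparisons (-0.78 to -0.16), and Bcl3 lay above it. Under quantile normalization 0 of 7 passed in each comparison (limma; 1, 2 and 3 of 7 at an unadjusted p under 0.05), where 19.2%, 27.2% and 20.4% of all probes passed, and Nfkb2, Nfkb1, Nfkbib and Ikbkb had values below 0 in all 3. Session and drug cannot be told apart in these values, and no slide held both TBI and a drug-treated group.

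Bcl3 was above its uninjured range on every drug-treated array. Its signal was 38.6%, 33.9% and 22.8% in TBI+PMI, 26.3%, 28.1% and 64.3% in TBI+JM6 and 32.3% and 43.5% in TBI+E33, and the probe was well above background on 8 of 8 arrays. Every one of these was above the highest TBI array at 15.9%, while with quantile normalization TBI+JM6 overlapped TBI and the other drug-treated groups did not. The log2 fold change against TBI was 1.68 ± 0.46, 1.91 ± 0.46 and 1.96 ± 0.51 (adjusted p = 0.00752, 0.00272 and 0.00467, limma). Counted from the all-probe median it was 0.89, 0.91 and 0.88. With quantile normalization it was 0.86, 0.92 and 0.92, with intervals above 0 (0.09 to 1.63, 0.15 to 1.70 and 0.06 to 1.79), and did not pass (adjusted p = 0.107, 0.0718 and 0.117, limma). By its fold change with 75th percentile scaling, Bcl3 stood at the 79th, 76.9th and 74.6th percentile of all probes.

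Nfkb2 was at 17.2%, 21.6% and 14% in TBI+PMI, 16.7%, 20.4% and 23.3% in TBI+JM6 and 19.6% and 20.1% in TBI+E33. No drug-treated array was below the TBI range on this scale. The quantile-normalized log2 fold changes were -0.11, -0.08 and -0.20, and the quantile-normalized arrays overlapped those of TBI in all 3 comparisons.

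Nfkb1 was at 27.3%, 31.8% and 25.1% in TBI+PMI, 21.7%, 27.1% and 35.6% in TBI+JM6 and 23.8% and 28.2% in TBI+E33. TBI+JM6 replicate 1 lay below the highest TBI array. Against TBI its quantile-normalized value was -0.51 in TBI+E33 (95% interval -0.87 to -0.14, adjusted p = 0.0507, limma), -0.33 in TBI+JM6 and -0.13 in TBI+PMI.

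Rela was at 67.1%, 55.3% and 48.7% in TBI+PMI, 52.7%, 70.3% and 79.7% in TBI+JM6 and 62.4% and 67.9% in TBI+E33. All 8 were above the TBI arrays, on the quantile-normalized scale as well, where the log2 fold changes were 0.23, 0.32 and 0.25 and did not pass. The second Rela probe was well above background on 8 of 8 drug-treated arrays, at 5% to 9.22%. With TBI signals limited as above, its mean was at least 4.04-fold, 4.47-fold and 4.89-fold higher than in TBI. On the quantile-normalized log2 scale the mean was at least 0.57, 0.49 and 0.40 higher. These limits carry no sampling error, and the quantile-normalized fit did not pass in TBI+E33 (adjusted p = 0.022, 0.0211 and 0.0557, limma).

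Nfkbia was at 410%, 145% and 83.5% in TBI+PMI, 110%, 146% and 225% in TBI+JM6 and 116% and 162% in TBI+E33. TBI+PMI held both the highest and the lowest drug-treated array. Each of the 3 groups overlapped TBI, and the log2 fold changes of 0.61, 0.46 and 0.30 did not pass (adjusted p = 0.311, 0.42 and 0.639, limma). With quantile normalization they were 0.11, -0.19 and -0.37, so the sign turned in TBI+JM6 and TBI+E33, and none passed.

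Nfkbib was at 39.2%, 35.7% and 31.5% in TBI+PMI, 33%, 41.7% and 47.6% in TBI+JM6 and 34.6% and 37.8% in TBI+E33. Ikbkb was at 15.3%, 14.9% and 16.6%, at 17.3%, 19.1% and 20.6%, and at 18% and 16.4% in the same groups. Both were above the TBI arrays on this scale. The quantile-normalized Ikbkb values were instead below those of TBI on all 8 arrays, with log2 fold changes of -0.40, -0.28 and -0.57 (adjusted p = 0.147, 0.288 and 0.072, limma).

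**Figure D4:**
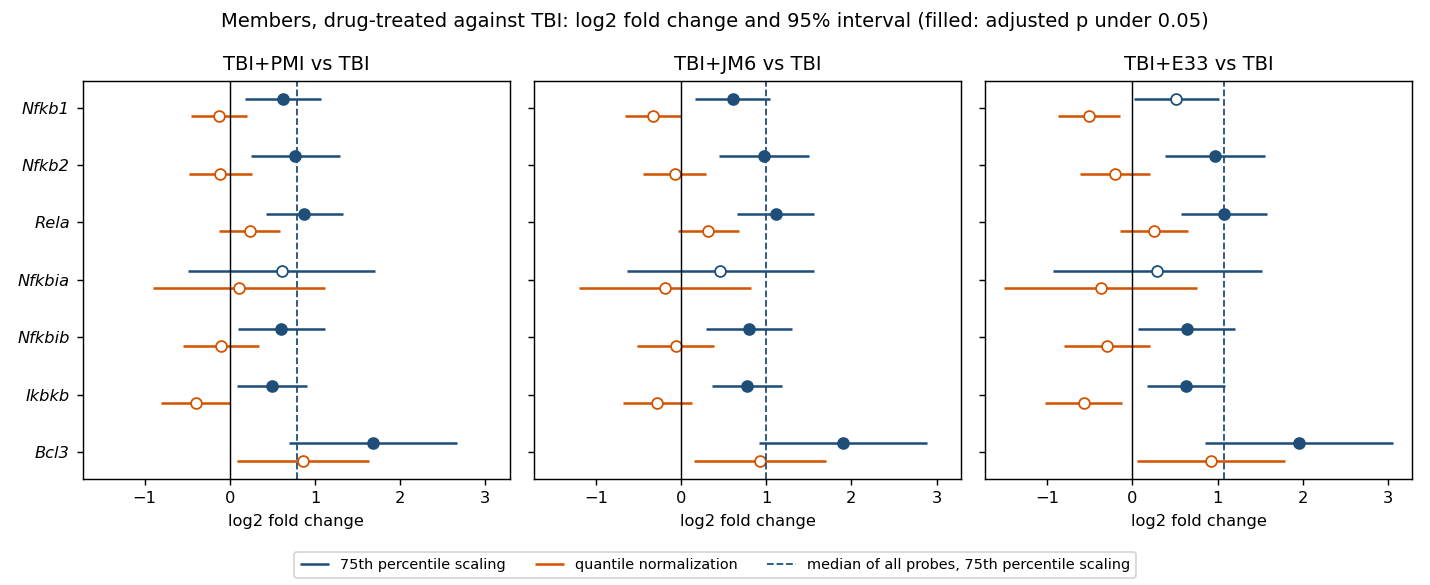
Log2 fold change (circle) and 95% interval (line) of the 7 members in each drug-treated group against TBI, with 75th percentile scaling in blue and quantile normalization in orange, filled at an adjusted p under 0.05. The dashed line is the median of all probes with 75th percentile scaling (0.79, 0.99 and 1.08). Bcl3 lay above the dashed line in all 3 panels, and no orange circle is filled.

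The drug-treated groups were then compared with each other within their shared session. By limma 0 of 7 members passed in TBI+JM6 against TBI+PMI, TBI+JM6 against TBI+E33 or TBI+PMI against TBI+E33, where 0.0131%, 0.0175% and 0.11% of all tested probes passed, and 0 of 7 had an unadjusted p under 0.05. The arrays did not overlap in 1, 0 and 0 of 7 members, against 14.8%, 17% and 41% of all probes. With quantile normalization 0% of all probes passed, and the number of members at an unadjusted p under 0.05 was 0, 0 and 1 (Nfkb1, 0.38 in TBI+PMI against TBI+E33, 95% interval 0.02 to 0.75, adjusted p = 0.463, limma). The methods' t-test before adjustment passed 1 of 7 members in the first comparison (Ikbkb, 0.28), where 6.81% of all probes passed. The largest difference of Bcl3 was -0.27 in TBI+PMI against TBI+E33 (95% interval -1.38 to 0.83), and the interval was -0.76 to 1.21 in TBI+JM6 against TBI+PMI. On the slide shared by TBI+PMI and 1 TBI+JM6 array Bcl3 was -0.24 in TBI+JM6 against TBI+PMI, opposite to the pooled 0.22, and on the slide shared by TBI+JM6 and TBI+E33 it was 0.18, opposite to the pooled -0.05. The doses of the 3 drugs differed, so they were not matched.

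Over the 6 groups Bcl3 thus ran from 1.61% ± 0.512 (SD, n = 3) in Naïve and 1.97% ± 1.3 (n = 2) in Sham through 10.4% ± 4.89 (n = 3) in TBI to 31.8% ± 8.16 (n = 3) in TBI+PMI, 37.9% ± 7.91 (n = 2) in TBI+E33 and 39.6% ± 21.5 (n = 3) in TBI+JM6. Naïve and Sham did not differ beyond their spread (adjusted p = 0.897, limma), nor did the neighbouring drug-treated groups, and the step from TBI to the drug-treated groups coincided with the change of session.

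Across the 8 drug-treated arrays the members were compared pair by pair, 21 pairs in all. Rela and Nfkbib varied together most closely (Pearson r = 0.94, exact permutation p = 0.000546, Benjamini-Hochberg adjusted p = 0.0115; Spearman rho = 0.952, exact permutation p = 0.00114, adjusted p = 0.024), and r was 0.864 without the 2 arrays farthest from the median of Nfkbib. No other pair passed the adjustment. With quantile normalization the r of Rela and Nfkbib was 0.736 (exact permutation p = 0.0538, adjusted p = 0.671) and no pair passed. All pairs share the arrays' scaling. The permutation treated the 8 arrays as interchangeable, although they came from different drug groups and slides. Group and slide means were not removed, so differences between groups or slides enter both r and p.

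Among 12784 genes above background on all 16 arrays, those whose log2 signal followed a member most closely were ranked by Pearson r after each session's mean was removed, as a description with no test. For Nfkb2 they included Cxcl16, a transmembrane chemokine (r = 0.942 over 16 arrays, 0.969 over the 8 Naïve, Sham and TBI arrays and 0.9 over the 8 drug-treated arrays), and Cdgap (0.955, 0.974 and 0.925). For Nfkbia they were Plat, tissue plasminogen activator (0.926, 0.881 and 0.951), the transcription factor Klf4 (0.89, 0.759 and 0.961) and the glucose transporter Slc2a1 (0.856, 0.611 and 0.969). For Rela they were Trip10 (0.952), LOC686076 (0.933) and Plscr3 (0.932), for Nfkbib RGD1305007 (0.928), Tox4 (0.901) and Blmh (0.894), and for Nfkb1 a named gene was Ard1a (0.902). The highest for Ikbkb was Rarres1 (0.728, and 0.648 with quantile normalization). With quantile normalization r was 0.934 for Cxcl16 with Nfkb2, 0.793 for Ard1a with Nfkb1 and 0.751 for LOC686076 with Rela. Group means were not removed and all genes share the arrays' scaling, so both enter r. Bcl3 was dim on uninjured arrays and was not ranked.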

How the data were processed

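Hippocampal RNA was measured on 1-color Agilent rat arrays, 1 array a rat and 16 in all. The deposited scanner files hold spot intensity from Agilent Feature Extraction 9.5.3.1, background subtracted within each array by that software. The authors' value matrix holds a linear ratio to each array's 75th percentile, with equal distributions over the arrays (column median 0.14), and it was used as an alternative.

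Intensity was averaged over spots of a probe, divided by the 75th percentile of the array's probes well above background and put on the log2 scale. The 22827 probes well above background on all arrays of at least 1 group were fitted with limma 3.58.1 in R 4.3.3 (6 group means, 10 residual degrees of freedom), with Benjamini-Hochberg adjustment and a threshold of 0.05. SE and 95% intervals come from that fit, and the number of arrays limits the precision. A gene with several probes was represented by its brightest. The fit was run on simulated data that held no slide or session effect, which checks the code and not the calls made here.

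Members and gene lists were chosen with earlier results of these data known. All members were named, with at most the 3 called genes of largest rise and of largest fall from each list and the 3 genes most alike to each member. Groups and replicates came from the sample titles. Replicate numbers were not taken as pairs in the main fit. Over 22 pairs of samples with the same number, 3 deviated together with a correlation over 0.1 (range -0.19 to 0.18). These were both pairs of TBI with Sham (0.18 and 0.16) and 1 of TBI+JM6 with TBI (0.12). Whether the numbers mark pairs in TBI against Sham is therefore not settled. Alternatives were other scalings (quantile, the percentile over all probes, the authors' matrix), normexp background correction with an offset of 50, a filter to the 14295 probes above background on all arrays, fits of the compared groups alone, slide and replicate blocks, the methods' t-test and leaving out each array. Sequences were read from RefSeq (GRCr8) and, for probes, from the scanner files (rn4). Single values of some marker genes are not reported here.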

Additional observations from a re-analysis of the deposited data

How the results depend on the processing

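All counts here are of the 7 members called. Bcl3 in TBI against Sham was positive in 16 of 16 alternatives and called in 10 (log2 fold change 1.37 to 3.20), and against Naïve it was positive in 17 of 17 and called in 13 (1.33 to 2.91). The share of all probes called under the same setting follows each count. Scaling to the 75th percentile of all probes gave 2 calls against Sham (12.4%), 2 against Naïve (8.09%), 1 in TBI+JM6 against TBI (43.8%) and 0 in TBI+PMI (35.8%) and TBI+E33 (40.4%). The authors' matrix gave 2 against Sham (8.55%) and 0 for TBI+JM6 (27%), TBI+PMI (19%) and TBI+E33 (20.6%). Normexp gave 0 against Sham (0.0175%), 0 against Naïve (0.175%), 3 for TBI+JM6 (21.5%) and 0 for TBI+PMI (6.29%) and TBI+E33 (14%), and quantile normalization gave 0 for the 3 drugs (27.2%, 19.2% and 20.4% in the same order). Against Sham and Naïve, 0 and 0 were called with the compared groups fitted alone (0.0439% and 0.0658%), with the slide as a fixed block (0.136% and 0.189%), with the filter to probes above background on all arrays, which removes Bcl3 (15.4% and 8.82%), and by the methods' t-test after adjustment (0.00439% in both). That t-test gave 3 for TBI+PMI (35.5%) and 3 for TBI+E33 (44%). Apart from the filter, the cause was not tested.

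Leaving out 1 array gave 0 to 1 calls against Sham, 1 to 1 against Naïve, 5 to 6 for TBI+JM6, 2 to 5 for TBI+PMI (2 without TBI replicate 1 or TBI+PMI replicate 2, 3 without TBI replicate 3) and 3 to 5 for TBI+E33 (3 without TBI replicate 3 or either TBI+E33 array), and 0 to 0 in the other comparisons. With the replicate number as a block the counts were 1, 1, 6, 4 and 5 in TBI against Sham, TBI against Naïve, TBI+JM6, TBI+PMI and TBI+E33 against TBI. Over all probes the block moved the calls in TBI against Sham from 2146 to 1544 and in TBI against Naïve from 1074 to 1324. As a random block the slide had a consensus correlation of -0.087.

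Against TBI, values of members turned below 0 under other scalings. With quantile normalization the log2 values in TBI+JM6 were -0.077 for Nfkb2, -0.28 for Ikbkb, -0.065 for Nfkbib and -0.33 for Nfkb1, in TBI+PMI -0.11, -0.40, -0.10 and -0.13 for the same genes, and in TBI+E33 -0.20, -0.57 and -0.30 for Nfkb2, Ikbkb and Nfkbib. Values called under neither scaling also turned there, Nfkb1 in TBI+E33 (-0.51) and Nfkbia in TBI+JM6 (-0.19) and TBI+E33 (-0.37), so 2 of 7 members stayed above 0 in these comparisons. Over all alternatives and comparisons 90 of 748 values called in neither fit changed sign. With the percentile over all probes they were -0.016 for Ikbkb and -0.18 for Nfkb1 in TBI+JM6, -0.15 for Ikbkb, -0.041 for Nfkbib and -0.019 for Nfkb1 in TBI+PMI, and -0.20 for Ikbkb and -0.19 for Nfkbib in TBI+E33. With the authors' matrix they were -0.070, -0.24, -0.058 and -0.31 for Nfkb2, Ikbkb, Nfkbib and Nfkb1 in TBI+JM6, -0.093, -0.36, -0.085 and -0.10 in TBI+PMI, and -0.18, -0.54 and -0.27 for Nfkb2, Ikbkb and Nfkbib in TBI+E33. Signal near background limits Bcl3 in uninjured rats and the second Rela probe.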
